A study of Mus musculus with 6 samples.

Results

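Microglia genes were taken as *Cx3cr1*, *Csf1r*, *P2ry12*, *Aif1*, *Tmem119*, *Trem2*, *Ctss*, *Fcrls* and *Mrc1*, 9 genes that mark microglia and the other macrophages of the brain. They were found by symbol in a table of 59484 gene features, of which 23505 carry a symbol, and each of the 9 has 1 feature. All 9 averaged at least 10 normalized counts and entered the comparison. PolyA+ RNA came from whole cortex of C57BL/6 embryos at E18.5. There were 3 libraries of wild-type embryos and 3 of embryos lacking both Sam68 and Slm2 (dKO), with no other allele or treatment given for either group. The sources used here do not say whether a library came from a single embryo or from a pool. Cells were not sorted, so that fewer microglia and less RNA in each of them cannot be told apart in these values. Between 31837922 and 40896541 reads per library lay on the listed features. A normalized count is a read count divided by the size factor of its library, and log2(normalized count + 1) was compared between the genotypes with limma over 18970 features. Adjusted *P*-values (Benjamini-Hochberg, over all these features) were read at 0.05. They rest on the spread between these libraries, and the labels do not say whether embryos shared a litter. The paper obtained dKO mice by intercrossing *Sam68*+/-:*Slm2*-/- mice, a cross that yields no wild-type pups. Litter and genotype thus cannot be told apart in these values.

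The genotype was checked on the targeted genes. *Khdrbs1*, the gene of Sam68, fell from 8213 ± 232 to 152 ± 41.5 normalized counts, and *Khdrbs3*, the gene of SLM2, from 13841 ± 1252 to 6652 ± 366 (SD, n = 3 each), so that transcripts of the latter remained. *Khdrbs2*, the gene of SLM1, rose by 2.40 on the log2 scale (adjusted p = 4.58e-06 from limma).

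Microglia are the resident macrophages of the brain. They arise from progenitors of the yolk sac that enter the neural tube during embryonic life, and they depend on signalling through the CSF1 receptor to survive. In the embryonic cortex they take up dying cells and contact progenitors and growing axons. A second population, the border macrophages, lines the meninges, the vessels and the choroid plexus and carries the mannose receptor encoded by *Mrc1*.

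Markers that define microglia were present in every library. *Csf1r*, the member with the most reads, had between 539 and 898 reads per library, and *Aif1* had between 28 and 60. Of 16 genes of other white blood cells, *S100a9* and *Ltf* of neutrophils reached a mean of 10 normalized counts, and the other 14 stayed under it. *Cd3e* of T cells, *Ms4a1* of B cells and *Elane* of neutrophils were listed at 0 in all 6 libraries. The libraries thus held microglial transcripts beside few or none of lymphocytes.

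Levels of different genes were compared in wild-type cortex as normalized counts per kb of the longest principal transcript. *Fcrls* had the highest level with 180 ± 39.4 per kb, followed by *Ctss* with 174 ± 87.1 and *Csf1r* with 155 ± 27.9 (SD, n = 3). *P2ry12* had 125 ± 24.8 per kb, *Cx3cr1* 91.9 ± 21.1, *Trem2* 58.9 ± 8.76, *Tmem119* 39.3 ± 12.5 and *Aif1* 38.01 ± 6.68. *Mrc1* was last with 18.8 ± 8.40 per kb. Only the step from *Aif1* to *Mrc1* separated neighbours in this order, since the wild-type ranges of all other neighbours overlapped.

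*Csf1r* encodes the receptor for CSF1 and IL-34, on which microglia depend, and lies on chromosome 18 from 61105571 to 61132149 (mm10). It had 822, 579 and 787 normalized counts in wild-type replicates 1 to 3 and 620, 616 and 701 in dKO replicates 1 to 3. The dKO values all lay between those of wild-type replicate 2 and wild-type replicates 1 and 3. The log2 fold change of *Csf1r* was -0.16 (standard error 0.14, adjusted p = 0.672 from limma), with a 95% interval from -0.47 to 0.15. *Cx3cr1*, the receptor for fractalkine (chromosome 9 from 120048683 to 120068297), had 456, 304 and 479 normalized counts in wild-type embryos and 397, 321 and 373 in dKO cortex. Again wild-type replicate 2 was the lowest of the 6 libraries and the dKO values lay inside the wild-type range. *Cx3cr1* had a log2 fold change of -0.16 with an interval from -0.55 to 0.24.

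*P2ry12* encodes the ADP receptor by which microglia sense injury (chromosome 3 from 59216271 to 59262985). It had 231, 302 and 346 normalized counts in wild-type embryos and 259, 235 and 288 in dKO cortex. Here wild-type replicate 1 was the lowest library, and the genotypes overlapped. *P2ry12* had a log2 fold change of -0.15 with an interval from -0.54 to 0.23. *P2ry12* lies inside *Med12l* on the opposite strand, and the strand setting of the counting is not given in the sources used here, so that reads of these genes may not be fully separated. The same limit holds for *Csf1r*, which overlaps *Hmgxb3* on the opposite strand, for *P2ry13*, which also lies in *Med12l*, and for *Gpr34* in *Cask*. *Irf5* overlaps *Tnpo3* on the opposite strand, and *Irf8* and *Itgam* overlap *Gm20388* and *Gm49368* on the same strand. These overlaps are not a full list for the genes named here. *Med12l* had 183 ± 31.2 normalized counts in wild-type embryos and 175 ± 7.32 in dKO cortex (SD, n = 3 each).

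*Tmem119* encodes a membrane protein that separates microglia from most other macrophages (chromosome 5 from 113793730 to 113800367). It had 80.8, 64.4 and 119 normalized counts in wild-type embryos and 95.3, 54.4 and 131 in dKO cortex. The lowest and the highest library were both dKO, and the log2 fold change was 0.04 with an interval from -0.71 to 0.80. *Fcrls*, an Fc receptor-like scavenger receptor of microglia (chromosome 3 from 87250763 to 87263593), had 448, 306 and 472 normalized counts in wild-type embryos and 338, 372 and 290 in dKO cortex. Wild-type replicates 1 and 3 lay above all dKO libraries, and wild-type replicate 2 lay among them. For *Fcrls*, it was -0.28 with an interval from -0.67 to 0.12.

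*Trem2*, *Ctss* and *Aif1* belong to the phagocytic side of these cells. *Trem2* encodes a receptor for lipids and cell debris (chromosome 17 from 48346395 to 48354147), with 61.8, 55.9 and 74.5 normalized counts in wild-type embryos and 60.8, 75.3 and 80.0 in dKO cortex. The genotypes overlapped, and the log2 fold change of *Trem2* was 0.17 with an interval from -0.37 to 0.71. *Ctss*, the gene of the lysosomal protease cathepsin S (chromosome 3 from 95526783 to 95556405), had 187, 149 and 370 normalized counts in wild-type embryos and 206, 277 and 340 in dKO cortex. Its highest value was that of wild-type replicate 3, and its log2 fold change was 0.30 with an interval from -0.41 to 1.01. *Aif1* encodes IBA1, the protein commonly stained to show microglia (chromosome 17 from 35170986 to 35176052). It had 26.6, 35.4 and 37.7 normalized counts in wild-type embryos and 31.8, 60.7 and 69.6 in dKO cortex. Thus dKO replicates 2 and 3 lay above all wild-type libraries and dKO replicate 1 lay among them. The log2 fold change of *Aif1* was 0.62 (standard error 0.35, adjusted p = 0.517 from limma), with an interval from -0.16 to 1.41.

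**Figure D1:**
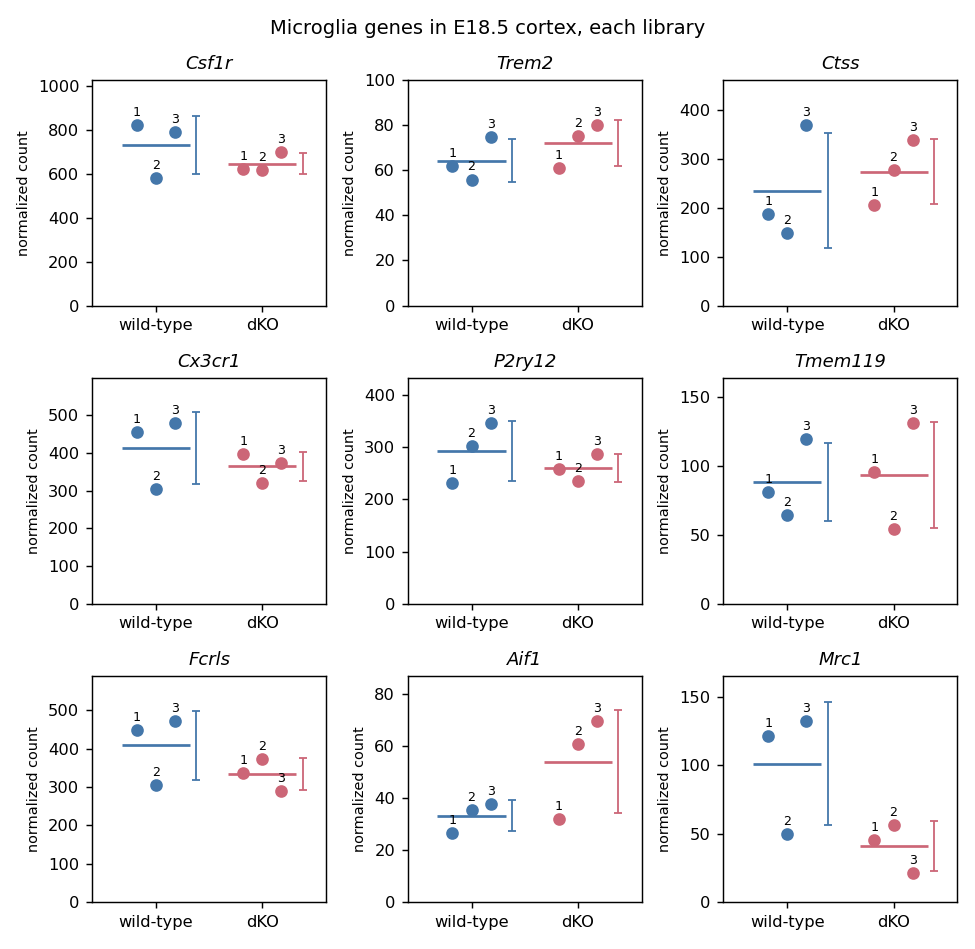
Normalized counts of the 9 microglia genes (vertical axes, from 0) in the 3 wild-type (blue) and 3 dKO (red) libraries. Points carry the replicate number, horizontal lines are means and bars are SD. The genotypes overlapped for every gene, and in *Mrc1* only wild-type replicate 2, with 49.4 normalized counts, lay among the dKO libraries.

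The member that differed most was *Mrc1*, the mannose receptor gene of border macrophages (chromosome 2 from 14229414 to 14332027). It had 122, 49.4 and 132 normalized counts in wild-type embryos and 45.4, 56.5 and 20.9 in dKO cortex. Wild-type replicates 1 and 3 were higher than any dKO library, whereas wild-type replicate 2 lay below dKO replicate 2. The mean of *Mrc1* in dKO cortex was 40.4% of that in wild-type, and its log2 fold change was -1.27 (standard error 0.45) with a 95% interval from -2.28 to -0.27. The unadjusted *P*-value was 0.0175, but the adjusted value over all features was 0.368 from limma and ran from 0.117 to 0.774 over the alternatives. *Mrc1* rests on few reads, between 18 and 151 per library. Its log2 fold change was -0.86 at the least when single libraries were left out, and the exact two-sided permutation test over the 6 libraries gave p = 0.2, where 0.1 is the smallest value that 3 against 3 allow.

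**Figure D2:**
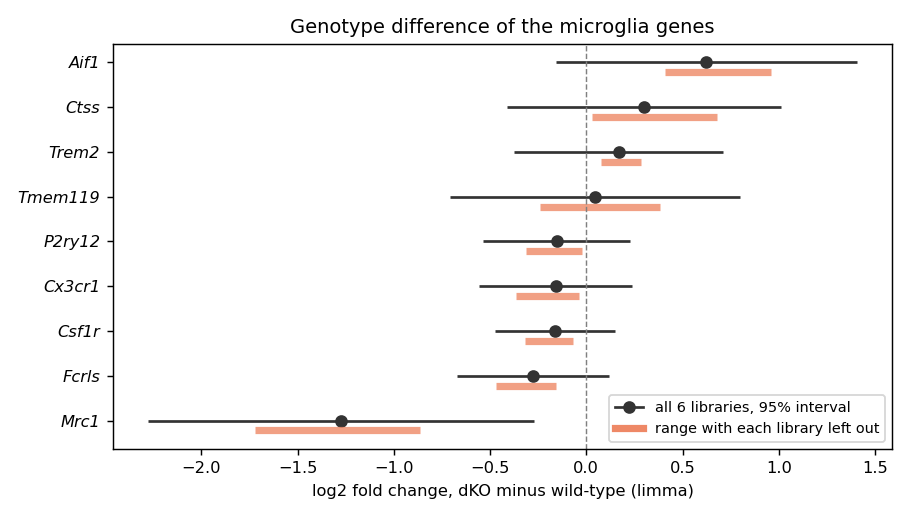
Log2 fold change of each microglia gene, dKO minus wild-type, from limma (horizontal axis). Black points and lines are the estimate and its 95% interval with all 6 libraries, and orange bars give the range of the estimate when single libraries were left out. The interval of *Mrc1*, from -2.28 to -0.27, is the only one that does not include 0.

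Sequences just before the start sites of *Mrc1* and *Aif1*, the members with the largest difference in each direction, are shown to place the letters GAGGAA, the core bound by PU.1, the lineage factor of macrophages encoded by *Spi1*. They come from RefSeq (GRCm38.p6), at chr2:14229164-14229413 on the plus strand and chr17:35176053-35176302 on the minus strand, and are written 5′ to 3′ along the gene. Capitals mark TTCCTC, which is GAGGAA on the opposite strand.
Mrc1: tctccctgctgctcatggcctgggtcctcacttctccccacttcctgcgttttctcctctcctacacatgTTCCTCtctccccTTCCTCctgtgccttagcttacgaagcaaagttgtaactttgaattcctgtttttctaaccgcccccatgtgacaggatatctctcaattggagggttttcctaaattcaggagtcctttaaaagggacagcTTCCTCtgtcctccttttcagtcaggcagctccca
Aif1: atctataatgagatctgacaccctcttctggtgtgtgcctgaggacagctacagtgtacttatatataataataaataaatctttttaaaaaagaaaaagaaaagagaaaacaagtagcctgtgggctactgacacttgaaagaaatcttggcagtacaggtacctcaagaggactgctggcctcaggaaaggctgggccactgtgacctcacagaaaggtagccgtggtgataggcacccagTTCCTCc
Promoters of 250 bases before to 50 bases after the start site were found for 7 members, all but *Csf1r* and *Tmem119*. On either strand, GAGGAA occurs in the promoters of 5 of the 7, namely *Mrc1*, *Fcrls*, *Ctss*, *Aif1* and *Trem2*, and in 28.3% of all 32851 promoters. *Mrc1* holds it at -180, -167 and -35 and *Aif1* at -7, counted from the start site. These matches are a description of letters. The gene of PU.1 itself, *Spi1*, had 111, 73.0 and 85.9 normalized counts in wild-type embryos and 76.2, 87.8 and 110 in dKO cortex, with both groups in the same range.

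Of the 9 microglia genes, none passed the adjusted threshold with limma, edgeR or DESeq2, where 0.1% of all features tested did with limma. In limma, 1 of the 9, *Mrc1*, had an unadjusted *P*-value under 0.05 and was lower in dKO cortex, against 6.58% of all features tested that were lower at this threshold and 11.5% in either direction. Positive log2 fold changes were seen for 4 and negative ones for 5 of the 9, with a median of -0.15, where the median of all features was 0.0036. For none of the 9 did the genotypes separate, which 16.4% of all features did. The sum of the 9 genes was 2435, 1845 and 2818 normalized counts in wild-type embryos and 2053, 2068 and 2293 in dKO cortex. All dKO sums lay inside the wild-type range (log2 ratio of the means -0.15; exact two-sided permutation test, p = 0.6). That ratio ran from -0.30 without wild-type replicate 2 to -0.0013 without wild-type replicate 3.

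Wild-type replicate 2 was the lowest of the 6 libraries for 4 of the 9 genes, and wild-type replicate 3 was the highest for 5. Without wild-type replicate 2, the log2 fold changes were -0.32 for *Csf1r*, -0.36 for *Cx3cr1*, -0.47 for *Fcrls* and -1.72 for *Mrc1*, each with an unadjusted *P*-value under 0.05. Their adjusted *P*-values then lay between 0.131 and 0.303 from limma, and 8.5% of all features tested were lower at an unadjusted *P*-value under 0.05. No member had an unadjusted *P*-value under 0.05 without wild-type replicate 1, without dKO replicate 3 or in limma without its trend and robust options, *Ctss* alone had one without wild-type replicate 3, and *Aif1* and *Mrc1* had one without dKO replicate 1 and with quantile normalization. *P2ry12* stayed at -0.12 and *Aif1* at 0.68 without wild-type replicate 2. The spread between libraries differed in both directions. The coefficient of variation of *Csf1r* was 18.01% in wild-type embryos and 7.40% in dKO cortex, and that of *Cx3cr1* was 23.0% and 10.7%. By contrast, it was 17.6% and 36.6% for *Aif1*, 31.9% and 41.0% for *Tmem119*, and 44.6% and 44.5% for *Mrc1*.

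From library to library, the members did not follow one profile alike. The mean centred log2 profile of the 9 genes ran from -0.28 in wild-type replicate 2 to 0.39 in wild-type replicate 3. *Csf1r* followed this mean most closely, with a root mean square difference of 0.13 over the 6 libraries, and *Cx3cr1* came next with 0.15. *Aif1* with 0.52 and *Mrc1* with 0.80 departed most. Outside the members, the 5 genes of 12725 with a symbol and a mean of at least 50 that lay nearest to the mean profile were *Scn2b*, *Rcsd1*, *Mum1l1*, *Lgmn* and *Plekhh3*, with differences from 0.057 to 0.071. Among these, *Lgmn* encodes a lysosomal protease that microglia also express. All 5 lay nearer to the mean profile than any member did, but they were picked as the nearest of 12725. By list, the median percentile rank, nearest first, was 5.05 for 13 myeloid lineage genes and 8.43 for 15 lysosomal genes. It was 11.3 for 4 erythroid genes and 66.02 for 10 other genes of resting microglia. Nearness over 6 libraries does not show that a gene is expressed in microglia.

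Border macrophages were examined with 11 further markers. Only 4 of them, *F13a1*, *Lyve1*, *Stab1* and *Dab2*, reached a mean of 10 normalized counts. All 4 had negative log2 fold changes with a median of -0.57, where 9367 of all 18970 features were negative. *Pf4*, a chemokine gene of these cells, had a mean of 8.58, *Ms4a7* 2.67, and *Cd209f* was listed at 0 in all libraries. With a minimum mean of 1, the border markers *Ms4a7* and *Cbr2* had positive log2 fold changes of 1.43 and 0.67. *Folr2*, *Cd163*, *Clec10a* and *Pf4* had negative ones of -1.19, -0.65, -0.43 and -0.20, all on very few reads. *F13a1*, a transglutaminase gene, had 45.7, 8.59 and 119 normalized counts in wild-type embryos and 29.0, 39.7 and 11.6 in dKO cortex. *Lyve1*, a hyaluronan receptor gene also found in lymphatic vessels, had 20.9, 6.44 and 43.8 in wild-type embryos and 0, 4.18 and 9.28 in dKO cortex. In both genes wild-type replicate 3 was the highest library, and wild-type replicate 2 lay in or below the dKO range. *Lyve1* had an unadjusted *P*-value under 0.05 (log2 fold change -2.37, adjusted p = 0.396 from limma). With so few reads, the log2 fold change of *Lyve1* was -3.52 with a pseudocount of 0.1, -1.11 with a pseudocount of 10 and -1.41 without dKO replicate 1, and it was not tested without wild-type replicate 3, where its mean was under 10. *F13a1* had a log2 fold change of -0.60, which became 0.23 without wild-type replicate 3.

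*Mrc1* was also set against genes of microglia within each library, since such a ratio does not depend on the scaling. It amounted to 10.02%, 5.06% and 9.35% of the sum of *P2ry12*, *Tmem119*, *Fcrls* and *Cx3cr1* in wild-type embryos and to 4.17%, 5.74% and 1.93% in dKO cortex. The genotypes overlapped through wild-type replicate 2 and dKO replicate 2 (exact two-sided permutation test of the log2 ratio, p = 0.2). With the 11 border markers and *Mrc1* together, the log2 ratio to the same microglia genes was -1.003 ± 0.42 in wild-type embryos and -1.43 ± 0.30 in dKO cortex (SD, n = 3 each; exact permutation p = 0.2). *Stab1* and *Dab2*, which other cell types express as well, made up most of that sum. The genotype difference of this log2 ratio was -0.43, and it ran from -0.67 to -0.27 with 1 library left out. It was -0.32 with means of log2 values (exact permutation p = 0.7) and -0.82 without *Stab1* and *Dab2* (exact permutation p = 0.3).

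Markers of meningeal fibroblasts were read beside *Mrc1*. All 5 of 5 had negative log2 fold changes, between -1.59 and -0.58, where 9367 of all 18970 features were negative. None of the 5 was at 0 in any library. Their sum was 777, 361 and 1255 normalized counts in wild-type embryos and 381, 434 and 375 in dKO cortex, so that wild-type replicate 2 lay below all dKO libraries and the genotypes overlapped (exact two-sided permutation test, p = 0.4). Of the 5 genes, 1 had an unadjusted *P*-value under 0.05 and none an adjusted one (limma). Of all features tested, 6.58% were lower at this unadjusted threshold and 11.5% passed it in either direction. The log2 fold changes of *Col1a1*, *Col1a2* and *Col3a1*, collagen genes of these cells, were -0.69, -0.83 and -0.76. The sources used here do not state how much of the meninges was taken with the cortex, and the part of such tissue in the *Mrc1* difference was not tested. Without wild-type replicate 2, *Col1a1*, *Col1a2* and *Col3a1* had -1.25, -1.34 and -1.22, and without wild-type replicate 3 they had -0.38, -0.44 and -0.27. Without wild-type replicate 1, *Col1a1* had -0.43.

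**Figure D3:**
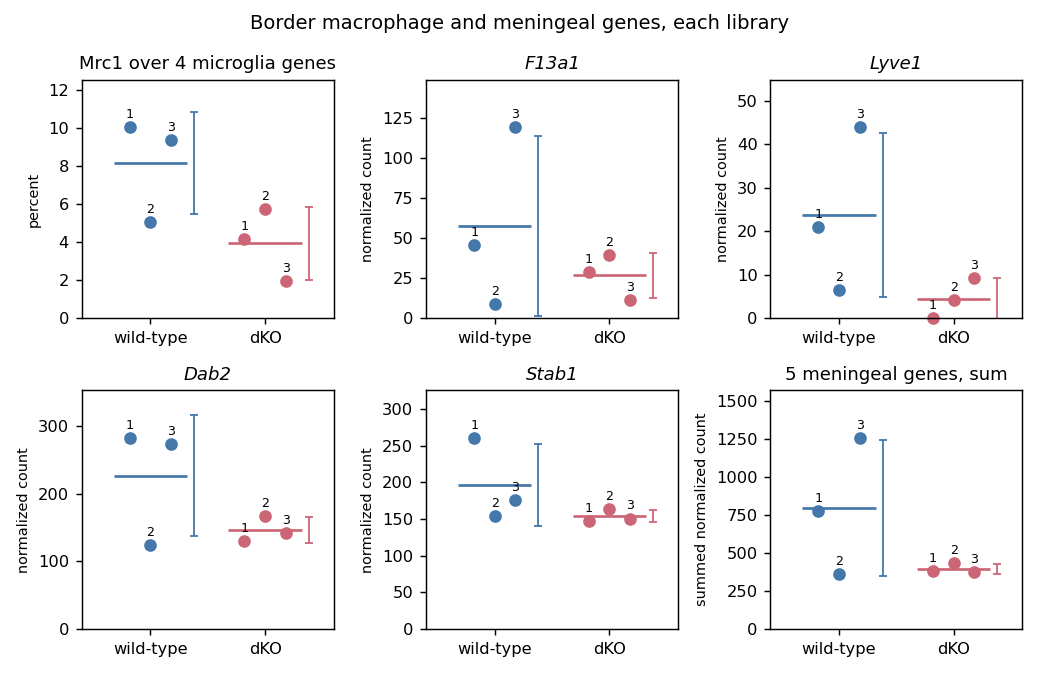
*Mrc1* as a percentage of the summed *P2ry12*, *Tmem119*, *Fcrls* and *Cx3cr1*, normalized counts of 4 border macrophage genes, and the summed normalized count of 5 meningeal genes (vertical axes, from 0) in the 3 wild-type (blue) and 3 dKO (red) libraries. Points carry the replicate number, lines are means and bars are SD, cut at 0. In each panel wild-type replicate 2 lies in or below the dKO range, and the meningeal sum is 361 there against 777 and 1255 in the other wild-type libraries.

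Other genes of resting microglia were taken from a further list. Of 12 such genes, 7 had positive and 5 negative log2 fold changes, with a median of 0.073. *P2ry13*, an ADP receptor gene next to *P2ry12*, had 0.18, and *Gpr34*, a lysophospholipid receptor gene, had 0.079. *Slc2a5*, the gene of the fructose transporter GLUT5, had 89.4, 76.3 and 96.4 normalized counts in wild-type embryos and 45.4, 43.9 and 45.2 in dKO cortex. Every dKO library lay below every wild-type library, as for 8.48% of all features tested. The mean of *Slc2a5* in dKO cortex was 51.3% of that in wild-type (log2 fold change -0.94, standard error 0.24, unadjusted p = 0.00236, adjusted p = 0.265 from limma). *Siglech*, a lectin receptor gene of microglia, had 72.3, 64.4 and 64.9 normalized counts in wild-type embryos and 60.8, 46.0 and 34.8 in dKO cortex. These groups did not overlap either, with a log2 fold change of -0.53 (adjusted p = 0.489 from limma).

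Genes of the myeloid lineage at large were measured next. Of 17 tested, none had an unadjusted *P*-value under 0.05 from limma, against 11.5% of all features. The median log2 fold change was -0.093. *Tyrobp*, the adaptor of TREM2, had 0.089, *Fcer1g*, the shared chain of Fc receptors, -0.42, and *Itgam*, the gene of CD11b, -0.22. Transcription factors of these cells included *Irf8* with -0.055 and *Irf5* with -0.097. *Runx1*, a factor of blood and microglial development, was singled out after its values were seen, since its mean was under 50. It had 24.7, 15.04 and 15.8 normalized counts in wild-type embryos and 36.3, 46.0 and 51.0 in dKO cortex. All dKO libraries lay above the wild-type ones, as for 7.89% of all features tested. The log2 fold change of *Runx1* was 1.24 (standard error 0.35, unadjusted p = 0.00517, adjusted p = 0.318 from limma).

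Other receptors of microglia were also measured. *Tgfbr1* and *Tgfbr2*, the TGF-β receptor genes, had log2 fold changes of 0.14 and -0.081, and *Nrros*, which presents TGF-β to microglia, had -0.037. *P2rx7*, an ATP-gated channel gene, had 136, 127 and 135 normalized counts in wild-type embryos and 114, 110 and 103 in dKO cortex. The dKO values lay below all wild-type values, as for 8.48% of all features tested. The log2 fold change of *P2rx7* was small at -0.28 (adjusted p = 0.564 from limma). Over the resting, lineage, factor, receptor and border lists together, 52 of 61 genes were tested. Of these, 1 was higher and 2 were lower at an unadjusted *P*-value under 0.05, against 4.92% and 6.58% of all features, and the median was -0.074. The 2 lower genes were *Slc2a5* and *Lyve1*, and *Lyve1* was tested only through its wild-type values. Without wild-type replicate 2, 12 of 53 had such a *P*-value and 11 of them were lower, against 14.3% of all features in either direction and 8.5% that were lower.

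Ligands of the microglial receptors come largely from other cells of the cortex. *Cx3cl1*, the gene of fractalkine, the neuronal ligand of CX3CR1, had 2179, 1495 and 2319 normalized counts in wild-type embryos and 1305, 1424 and 1111 in dKO cortex. Each dKO library lay below each wild-type library, as for 8.48% of all features tested, although wild-type replicate 2 was close to dKO replicate 2. The log2 fold change of *Cx3cl1* was -0.62 (standard error 0.16, unadjusted p = 0.00306, adjusted p = 0.271 from limma). DESeq2 on the recovered reads gave *Cx3cl1* an adjusted p = 0.0113, and limma without wild-type replicate 2 gave -0.82 with an adjusted p = 0.0469, in a range over all alternatives from 0.0113 to 0.713. Its receptor gene *Cx3cr1*, in contrast, had a log2 fold change of -0.16; the difference between these values was not tested. *Csf1* and *Il34*, the ligand genes of CSF1R, had 0.062 and 0.28, and *Il34* had only 22.6 ± 12.2 normalized counts in wild-type cortex (SD, n = 3).

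*C3*, the central complement gene whose cleaved protein tags targets for microglia, had 24.7, 36.5 and 35.1 normalized counts in wild-type embryos and 44.5, 113 and 81.2 in dKO cortex. All dKO values were above all wild-type values, as for 7.89% of all features. On the log2 scale *C3* differed by 1.20 (standard error 0.36, adjusted p = 0.326 from limma). A neutrophil gene, *Ltf*, singled out after its values were seen, was higher in part of these libraries, at 100 and 195 normalized counts in dKO replicates 2 and 3 against at most 21.04 in wild-type. The sum of the 16 genes of other white blood cells ran from 35.2 to 75.4 normalized counts in wild-type embryos and from 29.0 to 292 in dKO cortex. Their part in the *C3* values was not tested. *C1qa*, which microglia express, had a log2 fold change of 0.031.

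**Figure D4:**
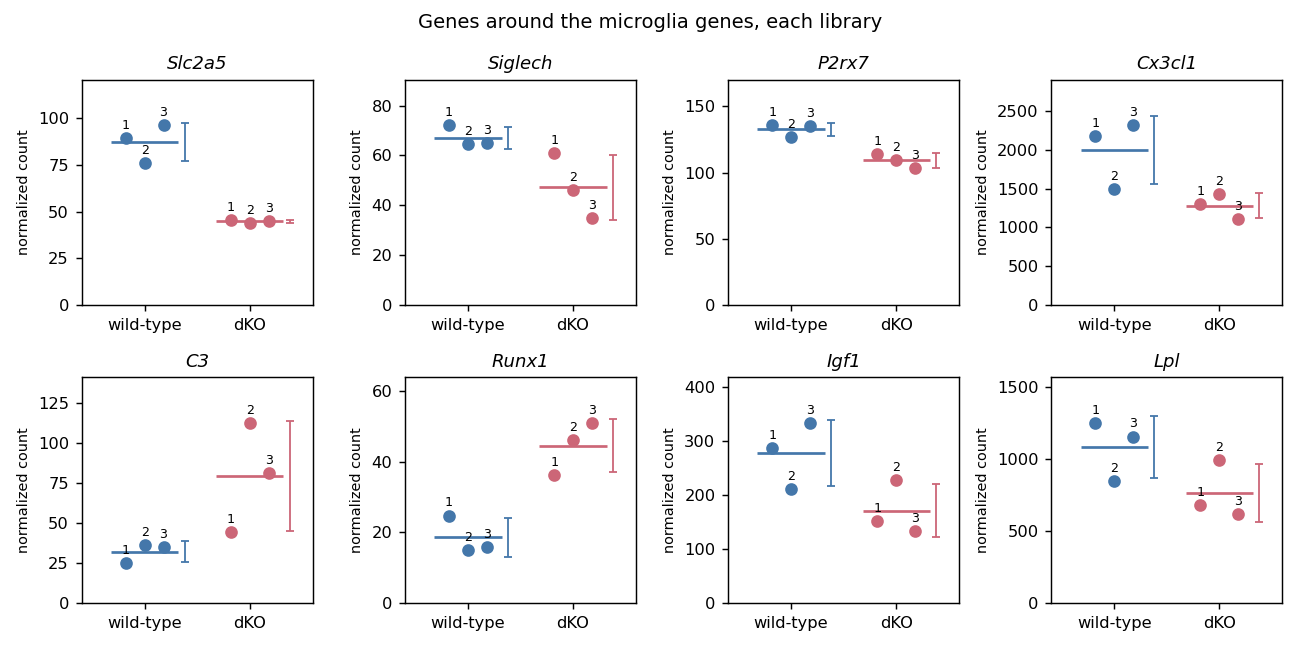
Normalized counts of 8 genes from the lists around microglia, in unsorted cortex (vertical axes, from 0), in the 3 wild-type (blue) and 3 dKO (red) libraries, with the replicate number at each point, means as lines and SD as bars. The genotypes did not overlap for *Slc2a5*, *Siglech*, *P2rx7*, *Cx3cl1*, *C3* and *Runx1*, and overlapped for *Igf1* and *Lpl*. The genes were chosen for a low unadjusted *P*-value or a lack of overlap. Of all features tested, 16.4% did not overlap, and over the 5 myeloid lists 4 of 52 tested genes did not overlap.

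Genes of activated or phagocytic microglia were also listed. Of 16 such genes 10 were tested, of which 3 had positive and 7 negative log2 fold changes, with a median of -0.34. *Igf1*, a growth factor gene, had 287, 212 and 334 normalized counts in wild-type embryos and 152, 227 and 133 in dKO cortex. *Lpl*, the lipoprotein lipase gene, had 1251, 842 and 1154 in wild-type embryos and 678, 993 and 616 in dKO cortex. For both genes dKO replicate 2 lay above wild-type replicate 2, so that the genotypes overlapped. Their log2 fold changes were -0.71 and -0.52, with unadjusted *P*-values of 0.0111 and 0.0256 and adjusted values of 0.345 and 0.390 from limma. The cortex was not sorted, and which cells carried the transcripts of *Igf1* and *Lpl* was not tested. *Spp1*, the osteopontin gene, had -0.50 and *Gpnmb* -0.97. Without wild-type replicate 1 they had -0.18 and -0.57, and without wild-type replicate 2 -0.87 and -1.50. The cytokine genes *Il1b* and *Tnf* stayed under a mean of 10 normalized counts.

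Interferon response genes had negative log2 fold changes in 9 of 10 cases, with a median of -0.58, where 9367 of all 18970 features were negative. Without dKO replicate 1, *Isg15*, *Ifitm3* and *Usp18* were positive at 0.23, 0.069 and 0.69, whereas *Ifit3* and *Irf7* stayed negative at -0.39 and -0.20. *Ifit1*, *Ifit2* and *Ifit3* had log2 fold changes of 0.53, -0.21 and -0.89. An unadjusted *P*-value under 0.05 was reached by none of the 10 (limma), against 11.5% of all features tested. Lysosomal genes, which many cortical cells express, ran from -0.48 to 0.19 over 15 genes. Among these, *Ctsa* had -0.10, *Ctsb* 0.037 and *Ctsc* -0.48, beside the 0.30 of *Ctss*.

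**Figure D5:**
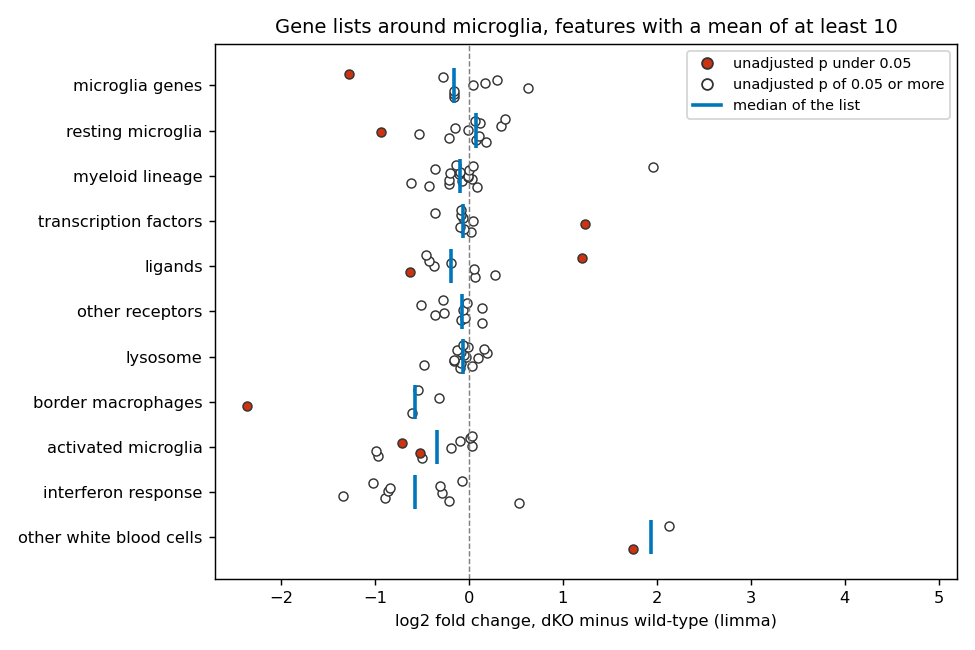
Log2 fold change, dKO minus wild-type, from limma (horizontal axis) for the tested genes of 11 lists (rows). Filled points have an unadjusted *P*-value under 0.05, and blue bars are the medians. The median of the microglia genes was -0.15 and that of the border macrophage genes -0.57.

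Markers of further cell types were read in the same libraries. All 7 endothelial genes had negative log2 fold changes, where 9367 of all 18970 features did. Among them *Cldn5* was at -0.028, *Pecam1* at -0.12 and *Flt1* at -0.76. Their sum ran from 6309 to 8306 normalized counts in wild-type embryos and from 5912 to 7017 in dKO cortex. The mural genes *Pdgfrb*, *Rgs5* and *Kcnj8* had -0.21, -0.31 and -0.15, and of the 5 mural genes 4 were negative and 1, at 0.25, was positive. Of the choroid plexus genes, *Ttr*, *Folr1* and *Kl* stayed under a mean of 10. Erythroid *Hba-a1* and *Hba-a2* had 0.088 and 0.20. The neuronal genes *Tubb3*, *Rbfox3* and *Snap25* had 0.18, -0.068 and -0.080, the radial glia genes *Pax6*, *Hes1* and *Slc1a3* had 0.28, 0.099 and -0.39, and the proliferation genes *Mki67*, *Top2a* and *Cdk1* had 0.33, 0.25 and 0.40. With limma, none of these markers passed the adjusted threshold, and the summed neuronal and proliferation lists lay higher and the summed mural list lower in all dKO than in all wild-type libraries (exact permutation p = 0.1 each). A sum weighs the most abundant genes most. Within the neuronal list 2 genes had positive and 3 negative log2 fold changes, with a median of -0.068. The part of these cell types in the values of the microglia genes was not tested.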

How the data were processed

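The authors sequenced polyA+ RNA of E18.5 cortex, had the reads analysed by GenoSplice and deposited, for each FAST DB gene, a signal: reads scaled by the DESeq2 size factor. The submitters' processing notes name STAR 2.7.5a and mm10. The counting program and strand setting are not given in the sources used here. Dividing each library by its smallest positive value gave whole reads for 100.0% of its values (tolerance 0.01 reads). Samples were grouped by their titles.

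The genotypes were compared with limma 3.58.1 (R 4.3.3, trend and robust options) on log2(normalized count + 1), keeping features that averaged at least 10, and sums and ratios by exact two-sided permutation tests. On this scale the change of low features is understated. Alternatives were pseudocounts of 0.1 and 10, minimum means of 1 and 50, TMM rescaling, quantile normalization, limma with neither trend nor robust options, tests of the recovered reads by edgeR 4.0.16 and DESeq2 1.42.0, the replicate number as a block and each library left out. Leaving *Mrc1*, or *Stab1* and *Dab2*, out of sums, and *Mrc1* alone, were chosen after seeing the data.

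Named genes were the members, the first 3 genes of each list, up to 5 genes per microglial list with the largest difference (mean of at least 50, and an unadjusted *P*-value under 0.05 or no overlap), and the 5 nearest profiles; one gene of the resting list is not reported here. The members and lists were chosen with earlier results of these data known. *Hbb-bt*, *Hbb-bs*, *Lyz2* and *Maf* were not matched by symbol. Transcript lengths came from GENCODE M21, and Python 3.11.15 was used for the rest. Splicing was not analysed here.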

Additional observations from a re-analysis of the deposited data

How the results depend on the processing

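With an adjusted threshold the count of microglia genes called was 0 in the comparison as reported and under each of the 16 alternatives. At an unadjusted *P*-value under 0.05 it was 1 (*Mrc1*) as reported, 0 in limma without trend and robust options, without wild-type replicate 1 and without dKO replicate 3, 2 (*Aif1* and *Mrc1*) with quantile normalization and without dKO replicate 1, and 4 without wild-type replicate 2. The count of all features called was 19 and became 7 with limma without trend and robust options, 207 with DESeq2, 9 with the replicate block and 7 to 46 with 1 library left out (7 without dKO replicate 3, 8 without wild-type replicate 1, 10 without wild-type replicate 3, 32 without wild-type replicate 2 and 46 without dKO replicate 1). Over the 5 myeloid lists, 3 genes at an unadjusted *P*-value under 0.05 became 1 with a minimum mean of 50, 5 with quantile normalization, 6 with DESeq2 and 2 to 12 with 1 library left out, the 12 without wild-type replicate 2. The cause of these shifts was not tested. The deviations of same-numbered libraries from their group means correlated at 0.098, -0.228 and -0.079. With only 3 libraries per group, these values cannot show whether the numbers pair the samples. The replicate block gave the summed members a log2 ratio of -0.13.

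Of 67 genes named and tested, 42 kept their direction and their side of the threshold in all alternatives. Quantile normalization reversed *Irf8* to 0.065, *Irf5* to 0.064, *Nrros* to 0.055, *Ctsb* to -0.045 and *Mum1l1* to 0.015, and *Ifit1* was -0.12 with edgeR and -0.11 with DESeq2. DESeq2 called *Cx3cl1* and *Flt1* (-0.64 and -0.78), and *Khdrbs3* (-1.05) lost its call in limma without trend and robust options. With 1 library left out, log2 fold changes that turned direction ran from -0.24 to 0.38 for *Tmem119*, -0.15 to 0.20 for *Gpr34*, -0.15 to 0.29 for *Tyrobp*, -0.62 to 0.13 for *Itgam*, -0.12 to 0.19 for *Spi1*, -0.13 to 0.013 for *Irf8*, -0.31 to 0.094 for *Irf5*, -0.078 to 0.21 for *Csf1*, -0.15 to 0.66 for *Il34*, -0.088 to 0.057 for *Nrros*, -0.014 to 0.077 for *Ctsb*, -1.59 to 0.23 for *F13a1*, -0.62 to 1.43 for *Ifit1*, -0.019 to 0.20 for *Hba-a1*, -0.11 to 0.034 for *Cldn5*, -0.15 to 0.012 for *Rbfox3*, -0.012 to 0.22 for *Hes1*. Among the nearest profiles they ran from -0.24 to 0.013 for *Scn2b*, -0.28 to 0.070 for *Rcsd1*, -0.23 to 0.099 for *Mum1l1*, -0.16 to 0.095 for *Lgmn*, -0.31 to 0.0088 for *Plekhh3*, and the same 5 genes were nearest with a minimum mean of 100. The members rest on 18 to 898 reads per library, and the 95% intervals give the range of differences that these 3 libraries per genotype leave possible.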
